A study of Mus musculus with 20 samples.

Results

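The gasdermin C family of the mouse ileum was examined in 4 groups of 5 female C57BL/6 mice that differed in dietary tryptophan (Trp) and in antibiotic treatment. The 4 genes were Gsdmc, Gsdmc2, Gsdmc3 and Gsdmc4, chosen by name from the 35204 genes of the gene table, together with their 10 transcripts among 113193 in the abundance files. The choice was made with earlier results of these data known. It rested on the comparison of Trp-deficient against control diet in mice without antibiotics, so the values of that comparison are given here as a description. Gasdermin C genes of the mouse encode relatives of the pore-forming gasdermins, in which a protease releases an amino-terminal part that inserts into membranes. They are known from the intestinal epithelium, where interleukin-4 and interleukin-13, acting through STAT6, raise them during worm infection and other type 2 responses. Human cells carry 1 GSDMC gene in place of the mouse cluster.

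Mice were 7 weeks old at the start and were fed a Baker's amino acid diet for 3 weeks, either the control diet (CD) or the same diet without Trp (TDD). In each diet, 1 group remained specific pathogen-free (SPF) and 1 group (CD with ABX, TDD with ABX) drank water with ampicillin, vancomycin, gentamycin, metronidazole and neomycin. The study's wild-type mice were C57BL/6NJ, and poly-A RNA came from whole ileal tissue near the cecum, so every value mixes epithelium, immune cells and muscle. In such tissue fewer cells of a type and less RNA per cell cannot be told apart. The study compared the diets with and without an intact microbiota.

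Estimated counts per mouse totalled 36676963 to 58662617, with group medians of 43561216 to 48538795. Enterocyte genes were abundant, but the defining genes of distal ileal bile acid uptake were low in SPF mice. Fabp6, the ileal bile acid binding protein, averaged 1.17 ± 0.969 CPM (counts per 1000000 counts of a library; SD, n = 5) on CD and 1.40 ± 1.58 on TDD, against 41.6 ± 59.4 and 20.1 ± 13.6 with ABX. Slc10a2, the ileal bile acid transporter, averaged 2.36 ± 1.02, 5.89 ± 1.98, 39.5 ± 27.2 and 37.0 ± 16.7 CPM in the same order. Markers of exocrine pancreas summed to 133 CPM in CD mouse 5 and to 2.95 to 4.79 CPM in every other mouse. CD mouse 5 also had the highest level of each gasdermin C gene among the CD mice, so values are given below with and without it. The part of these differences between libraries in the results on the family was not tested.

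The 4 genes lie side by side on the minus strand of chromosome 15 in mouse genome build GRCm38, over 136330 bases. Gsdmc (ENSMUSG00000079025.9) spans positions 63775968 to 63808759 and Gsdmc2 (ENSMUSG00000056293.12) positions 63824346 to 63845177. Gsdmc3 (ENSMUSG00000055827.13) spans 63857724 to 63878558 and Gsdmc4 (ENSMUSG00000055748.12) spans 63891264 to 63912297. The annotated pseudogenes Gsdmcl1, Gsdmcl2 and Gsdmcl-ps lie between and beside them on the plus strand and overlap none of them.

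Because the copies are alike, part of each transcript cannot tell them apart, which bears on every count given here. Between the coding sequences of the most abundant transcript of each gene, Gsdmc2 and Gsdmc3 were 97.1% identical, and each was 93.8% identical to Gsdmc4. Gsdmc was 87.0% to 87.6% identical to the others. The longest run without a difference was 317 bases, between Gsdmc2 and Gsdmc3. The start of the coding sequence shows what the copies share. These 60 bases lie in exon 2 of Gsdmc, Gsdmc3 and Gsdmc4 and in exon 4 of Gsdmc2, and capitals mark the 7 positions at which the 4 genes are not all the same.
Gsdmc: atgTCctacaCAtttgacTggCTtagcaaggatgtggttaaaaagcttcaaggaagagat
Gsdmc2: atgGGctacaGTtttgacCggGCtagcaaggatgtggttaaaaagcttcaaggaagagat
Gsdmc3: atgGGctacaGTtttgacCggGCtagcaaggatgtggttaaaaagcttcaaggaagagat
Gsdmc4: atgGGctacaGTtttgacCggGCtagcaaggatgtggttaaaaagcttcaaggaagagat
Gsdmc2, Gsdmc3 and Gsdmc4 had the same letters over this whole stretch, and all 7 differences set Gsdmc apart. These stretches are at chr15:63804533-63804592 in Gsdmc, chr15:63835884-63835943 in Gsdmc2, chr15:63869238-63869297 in Gsdmc3 and chr15:63902871-63902930 in Gsdmc4 (minus strand).

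Further into the coding sequence the copies could be separated. Of all 60-base stretches within 1 exon of each gene, the following held the most positions, 15, at which Gsdmc2, Gsdmc3 and Gsdmc4 were not all the same, and capitals again mark positions that differ among the 4 genes.
Gsdmc: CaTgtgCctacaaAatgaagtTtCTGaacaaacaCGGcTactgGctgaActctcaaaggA
Gsdmc2: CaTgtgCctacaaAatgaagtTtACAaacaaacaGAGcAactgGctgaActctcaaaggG
Gsdmc3: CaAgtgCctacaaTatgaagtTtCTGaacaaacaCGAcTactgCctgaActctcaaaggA
Gsdmc4: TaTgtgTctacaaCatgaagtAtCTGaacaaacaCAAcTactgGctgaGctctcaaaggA
This stretch is in exon 8 of Gsdmc at chr15:63778644-63778703 and in exon 11 of Gsdmc2 at chr15:63826868-63826927. It is in exon 9 of Gsdmc3 at chr15:63860298-63860357 and in exon 9 of Gsdmc4 at chr15:63893815-63893874. Counted in words of 31 bases, 38.4% of the main Gsdmc2 transcript occurred in no transcript of another gene. The share was 39.5% for Gsdmc3, 48.8% for Gsdmc4 and 75.8% for Gsdmc. No word was shared with a gene outside the 4, the pseudogenes included. A read longer than 31 bases can span shared and unshared words, so these shares are not shares of reads. Reads that fit several copies were divided among them by the program that made the counts. The level of a single copy is therefore less certain than that of the family.

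Without antibiotics, TDD-fed mice had far less RNA of all 4 genes than CD-fed mice. The family summed to 115 ± 70.6 CPM on CD and to 8.63 ± 3.83 CPM on TDD (SD, n = 5 each). All 4 members were among the 0.993% of 16306 tested genes with an adjusted edgeR p under 0.05 and at least 2-fold lower on TDD. All 4 were also among the 4.9% whose groups did not overlap with TDD lower. This is the pattern they were chosen by, and these shares are a description. Gsdmc reached the 0.5 CPM needed for testing only in CD-fed mice, with or without ABX. TDD mice reached at most 0.0826 CPM, or 0.331 with ABX, so its place among the lower genes was tied to that limit.

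Gsdmc4 was the most abundant member on CD, at 31.0, 69.6, 34.4, 51.7 and 121 CPM in mice 1 to 5. On TDD it was at 4.79, 4.91, 1.66, 3.30 and 2.40 CPM. The highest TDD mouse stood far under the lowest CD mouse, and the fitted log2 fold change was -4.19 (SE 0.58), an 18.2-fold lower level on TDD.

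Gsdmc2 was at 18.8, 44.5, 18.6, 31.7 and 74.7 CPM in the CD mice. In the TDD mice it was at 4.72, 6.28, 1.97, 5.04 and 1.94 CPM. The groups did not overlap, the log2 fold change of -3.26 (SE 0.54) corresponds to a 9.58-fold lower level, and CD mouse 5 was again the highest of all 10.

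Gsdmc3 was at 6.42, 17.8, 7.46, 12.7 and 31.9 CPM on CD. On TDD it was at 1.76, 1.51, 0.559, 1.46 and 0.663 CPM. No TDD mouse reached the range of CD, and the log2 fold change was -3.71 (SE 0.62), a 13.0-fold lower level.

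Gsdmc itself was near the limit of detection, with 15, 20, 23, 16 and 43 estimated counts in the CD mice, or 0.367 to 0.905 CPM. The TDD mice had 1, 3, 0, 3 and 1 counts, and the count of 0 allows a level of up to 0.0621 CPM in that mouse. Summed over the mice this was 117 counts against 8, a ratio of 15.1 after scaling for depth, with a 95% exact interval of 7.39 to 35.7 that covers counting error only. The fitted log2 fold change was -3.77 (SE 0.84).

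Leaving out CD mouse 5, the log2 fold changes were -3.48 (SE 0.87) for Gsdmc, -2.86 (SE 0.52) for Gsdmc2, -3.26 (SE 0.59) for Gsdmc3 and -3.80 (SE 0.54) for Gsdmc4. All remained lower on TDD, by somewhat less than with that mouse.

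**Figure D1:**
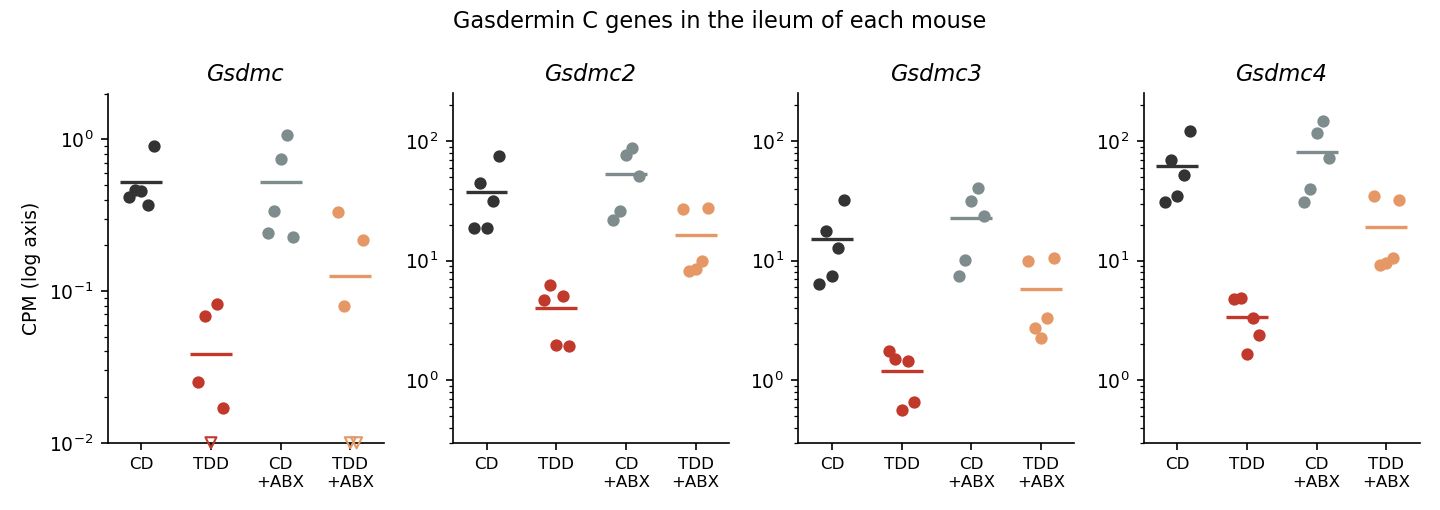
Each point is 1 mouse (5 per group) and each line a group mean, with CPM on a log axis that runs lower for Gsdmc than for the other genes, and open triangles at the bottom for mice with no count of Gsdmc. The 5 TDD mice lie under all 5 CD mice in each panel, and the ABX-treated TDD mice reach from just above the TDD mice of Gsdmc2, Gsdmc3 and Gsdmc4 into the range of CD with ABX.

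The 10 ABX-treated mice were outside the comparison that put the genes forward, and here the diets were tested. Earlier results of these data were known when the genes were chosen, so this test was not wholly independent of the choice. All 4 genes again had lower means on TDD, but only Gsdmc4 fell past the threshold of an adjusted p under 0.05 and a change of at least 2-fold. That is 1 of 4 members, where 0.172% of all 16306 tested genes were called lower. The groups overlapped for all 4 genes, whereas 2.43% of genes had every TDD mouse with ABX under every CD mouse with ABX.

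Gsdmc4 was at 31.0, 40.0, 117, 148 and 71.7 CPM in mice 1 to 5 on CD with ABX. On TDD with ABX it was at 34.8, 9.15, 9.59, 10.4 and 32.4 CPM. TDD mice 1 and 5 stood at the level of the lowest CD mouse, and the other TDD mice were well under it. Gsdmc4 fell by 2.08 on the log2 scale (SE 0.51, 4.24-fold, edgeR quasi-likelihood test, adjusted p = 0.041).

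Gsdmc2 was at 21.9, 26.0, 77.2, 87.0 and 51.4 CPM on CD with ABX. With ABX the TDD mice were at 27.0, 8.25, 8.56, 9.87 and 27.6 CPM. The same TDD mice, 1 and 5, lay inside the range of CD, and the log2 difference of -1.70 (SE 0.50) did not pass the threshold (edgeR, adjusted p = 0.0879).

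For Gsdmc3 the CD mice with ABX had 7.41, 10.05, 31.3, 40.9 and 23.5 CPM. The TDD mice with ABX had 10.02, 2.72, 2.25, 3.28 and 10.5 CPM. Again mice 1 and 5 on TDD overlapped with CD, and the log2 difference was -1.98 (SE 0.55; edgeR, adjusted p = 0.0765).

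Gsdmc had 11, 14, 36, 55 and 12 counts on CD with ABX. On TDD with ABX it had 16, 4, 0, 0 and 9 counts, where 0 allows up to 0.062 CPM. In CPM TDD mouse 1 lay above 2 of the 5 CD mice, and the log2 difference was -2.07 (SE 0.70; edgeR, adjusted p = 0.153). Gsdmc entered the tested genes only through CD-fed mice, so a lower level on TDD was favoured in advance. Summed counts of 128 and 29 gave a ratio of 4.39 (95% exact interval 2.91 to 6.81, counting error only).

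The call of Gsdmc4 rested on the pooled spread and on single mice. It was lost when only the 10 ABX-treated mice were fitted (log2 -2.09, edgeR adjusted p = 0.0778). Among the 20 fits that each left out 1 mouse, 12 kept the call. It was lost without CD mouse 4 (adjusted p = 0.0506) and without TDD mouse 4 (0.0514), both of groups outside this comparison. Among ABX-treated mice it was lost without CD mouse 3 (0.0986), 4 (0.121) or 5 (0.0523) and without TDD mouse 2 (0.0983), 3 (0.104) or 4 (0.102), all by edgeR. DESeq2 instead called 3 of the 4 members lower, with adjusted p-values of 0.0364 for Gsdmc2, 0.0207 for Gsdmc3 and 0.00658 for Gsdmc4.

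ABX moved the family little on CD and more on TDD. Both comparisons share mice with the one that the genes were chosen by, so they are given without a test. On CD the log2 change with ABX was 0.00 (SE 0.61) for Gsdmc, 0.48 (SE 0.48) for Gsdmc2, 0.57 (SE 0.53) for Gsdmc3 and 0.41 (SE 0.48) for Gsdmc4, and the groups overlapped for every gene. Without CD mouse 5 these values were 0.30 (SE 0.65), 0.90 (SE 0.48), 1.03 (SE 0.54) and 0.81 (SE 0.49).

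On TDD the log2 change with ABX was 2.04 (SE 0.53) for Gsdmc2, 2.29 (SE 0.61) for Gsdmc3 and 2.51 (SE 0.55) for Gsdmc4. For these 3 members every ABX-treated mouse was above every untreated mouse, as it was for 5.97% of all genes. Gsdmc differed by 1.70 (SE 0.95), and its groups overlapped. The diet difference was smaller with ABX than without by 1.70 (SE 1.13) for Gsdmc, 1.56 (SE 0.71) for Gsdmc2, 1.73 (SE 0.80) for Gsdmc3 and 2.11 (SE 0.73) for Gsdmc4 on the log2 scale. That difference was not tested, since the choice of genes used part of it.

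**Figure D2:**
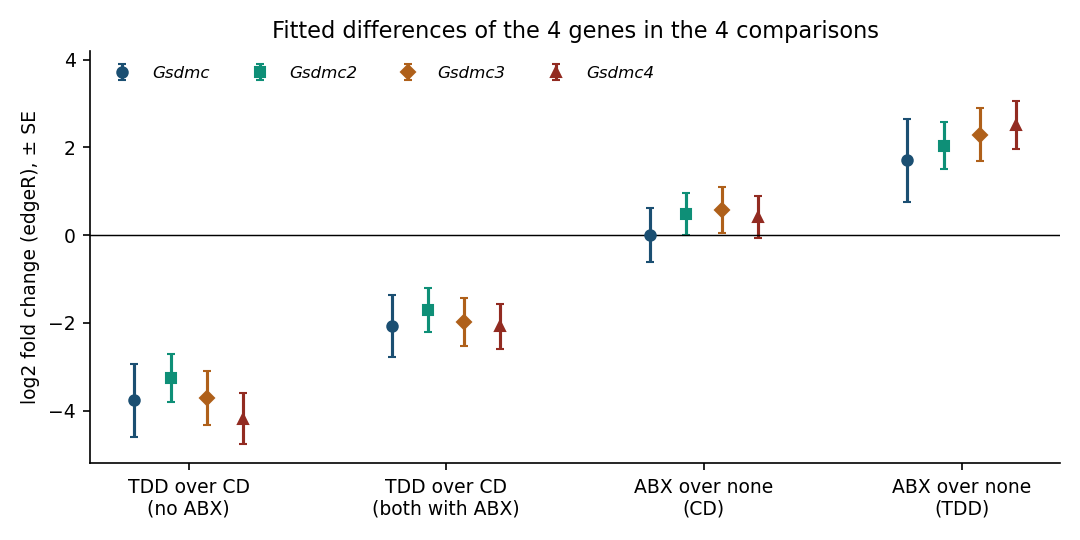
Points are fitted log2 fold changes with standard errors for the 4 genes in each of 4 comparisons of 5 against 5 mice, and 0 marks no difference. Both diet comparisons lie below 0, from -4.19 to -3.26 without ABX and from -2.08 to -1.70 with ABX, and the effect of ABX is above 0 on TDD, from 1.70 to 2.51.

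Added up and fitted as 1 gene, which removes the division of reads among copies, the family differed between diets by a log2 value of -3.75 (SE 0.56) without ABX and -1.93 (SE 0.51) with ABX. The order of group means was the same for Gsdmc2, Gsdmc3 and Gsdmc4, highest on CD with ABX, then CD, then TDD with ABX and lowest on TDD. Only the step from TDD to the next group was free of overlap. The spread within groups was wide, with summed family levels of 56.6 to 229 CPM on CD, 60.5 to 277 CPM on CD with ABX and 20.2 to 72.2 CPM on TDD with ABX. TDD mice spanned 4.18 to 12.8 CPM.

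Per length, in TPM (transcripts per 1000000), Gsdmc4 was the leading member on CD at 40.4 ± 23.5, followed by Gsdmc2 at 24.3 ± 14.6, Gsdmc3 at 9.55 ± 6.33 and Gsdmc at 0.297 ± 0.118 (SD, n = 5). These ranges overlap between mice for Gsdmc2 against both of its neighbours in that order, but the shares within a mouse did not. Gsdmc4 made up 53.2% to 57.0% of the family TPM in each CD mouse, Gsdmc2 30.6% to 33.5% and Gsdmc3 11.0% to 13.5%.

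The balance between the copies differed by diet. On TDD the share of Gsdmc4 was 40.6% ± 4.99 and that of Gsdmc2 44.9% ± 5.11. With ABX the share of Gsdmc4 was 52.3% ± 1.85 on CD and 46.8% ± 1.63 on TDD (SD, n = 5). Gsdmc3 stayed between 12.4% and 14.2% in all 4 group means.

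The ratio of Gsdmc2 to Gsdmc4 counts was 0.607, 0.640, 0.541, 0.614 and 0.616 in CD mice 1 to 5. It was 0.984, 1.28, 1.19, 1.52 and 0.809 in the TDD mice. All 5 TDD mice were above all 5 CD mice. With ABX the ratio was 0.706, 0.649, 0.661, 0.586 and 0.716 on CD and 0.777, 0.902, 0.892, 0.945 and 0.850 on TDD, and again the diets did not overlap. This ratio was singled out after its values were seen, and it was not tested. The ranges of Gsdmc3 to Gsdmc4 did overlap with ABX, at 0.239 to 0.328 on CD and 0.235 to 0.324 on TDD. The part of read assignment between like copies in the ratio was not tested.

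**Figure D3:**
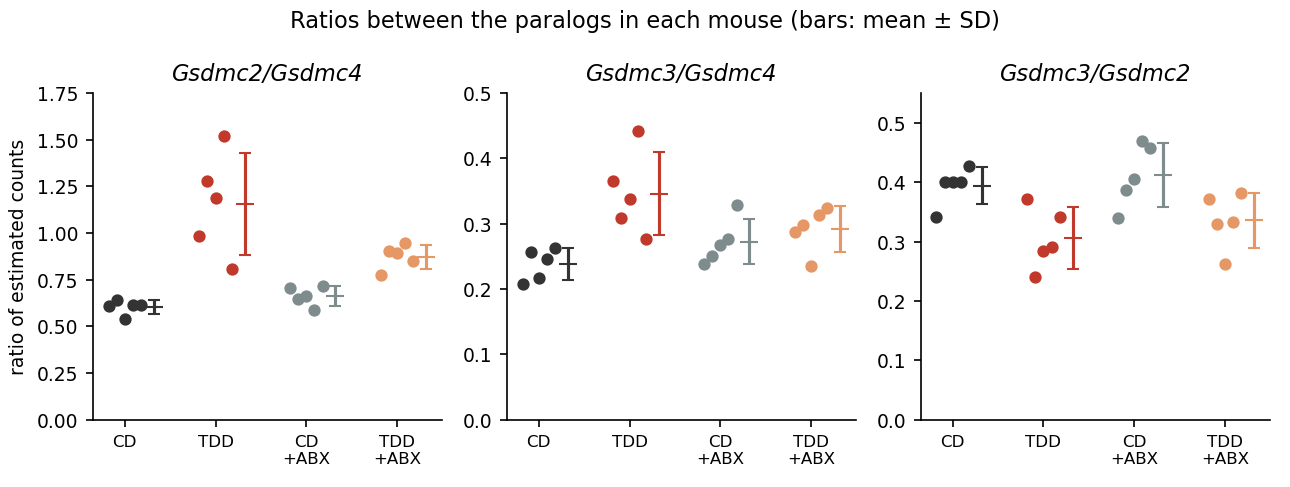
Points are ratios of estimated counts of 2 gasdermin C genes in each of the 20 mice, with the mean and SD of 5 mice beside them. The Gsdmc2 to Gsdmc4 ratio averages 0.603 on CD and 1.16 on TDD without ABX, and 0.664 and 0.873 with ABX, and the other pairs overlap between diets in at least 1 setting.

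Among the 10 transcripts, 1 or 2 carried each gene. Gsdmc4-202 held 94.4% to 100% of the Gsdmc4 counts by group, and Gsdmc3-202 held 82.8% to 94.2% of those of Gsdmc3. Gsdmc2 was split between Gsdmc2-203, with 60.7% to 62.8%, and Gsdmc2-202, with 31.1% to 34.8%. All counts of Gsdmc fell on Gsdmc-202 and none on Gsdmc-201. Each of these leading transcripts had its lowest mean on TDD, as with Gsdmc4-202 at 40.4 ± 23.5 TPM on CD, 1.99 ± 0.951 on TDD, 52.9 ± 33.6 on CD with ABX and 13.1 ± 8.87 on TDD with ABX (SD, n = 5). Mouse by mouse the shares within Gsdmc2 spread more, from 42.2% to 78.6% for Gsdmc2-203 and from 21.4% to 47.8% for Gsdmc2-202.

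**Figure D4:**
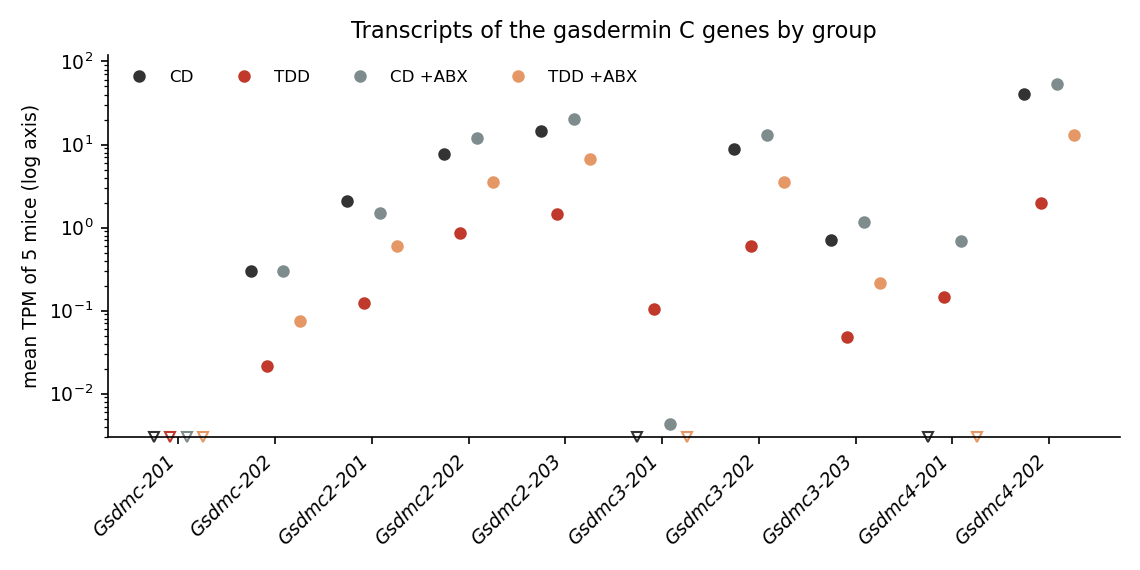
Points are mean TPM of 5 mice on a log axis for the 10 annotated transcripts of the 4 genes, with open triangles at the bottom for means under 0.003. Gsdmc4-202 is highest in every group, from 1.99 TPM on TDD to 52.9 TPM on CD with ABX.

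Of the pseudogenes, Gsdmcl-ps was the only one with more than 20 counts in any mouse. It had 7, 15, 5, 5 and 21 counts in the CD mice and 0, 0, 0, 0 and 2 in the TDD mice, a ratio of 27.3 after scaling with a 95% exact interval of 7.19 to 231. With ABX it had 40 counts in all on CD and 23 on TDD, a ratio of 1.73 (1.01 to 3.02). Gsdmcl2 had 13 counts on CD and 4 on TDD, and with ABX 13 on CD and 18 on TDD, and Gsdmcl1 had at most 2 in a group. The intervals cover counting error only. All 3 fell under the filter on low values. Fitted without that filter, Gsdmcl-ps was called lower on TDD without ABX (log2 -4.43, SE 0.75; edgeR, adjusted p = 0.000843) and higher with ABX on TDD (log2 3.15, SE 0.82; adjusted p = 0.0226).

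The protein-coding gene nearest to the cluster did not pass the test. Fam49b, a regulator of actin remodelling that lies 16800 bases from Gsdmc4, averaged 42.7 ± 2.53 CPM on CD and 46.9 ± 2.06 on TDD, a log2 difference of 0.13 (SE 0.06; edgeR, adjusted p = 0.14). With ABX its difference between diets was 0.14 (SE 0.06; edgeR, adjusted p = 0.262). On the other side no protein-coding gene lies within 500 kb. RefSeq promoter windows of 300 bases (GRCm38.p6) included Gsdmc3 alone of the 4 genes, around the start of Gsdmc3-203, a transcript with 5.79% to 7.84% of the Gsdmc3 counts. Neither GCGTG, the core of the element bound by the aryl hydrocarbon receptor, nor the STAT6-type palindrome (TTC, a gap of 4 bases, then GAA) occurred in it on either strand. Of all 32851 windows 32.4% held the former and 7.0% the latter. The same held for the E-box CACGTG, present in 7.2% of windows. Part of an HNF4 element, CAAAGTCC, is in 1.4% of windows, and the narrower STAT palindrome TTCNNNGAA is in 8.3%, and neither was found in the Gsdmc3 window.

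The other gasdermins were tested beside the family. Among all 16306 genes, 28.5% had an unadjusted edgeR p under 0.05 between diets without ABX and 14.8% with ABX, and the counts of such genes below are to be read beside these shares. An adjusted p under 0.05, at a change of any size, was reached by 14.4% and 1.77% of genes. Of 4 tested genes (Gsdma, Gsdma2, Gsdmd and Gsdme) none passed the threshold in any comparison, and 2 without ABX and 1 with ABX had an unadjusted edgeR p under 0.05 between diets. Their median log2 difference between diets was 0.26 without ABX and 0.04 with ABX, beside medians over all genes of 0.013 and -0.003. Gsdmd, the executor of inflammatory pyroptosis, was at 319 ± 63.6 CPM on CD and 380 ± 74.9 on TDD (log2 0.25, SE 0.15; edgeR, adjusted p = 0.279). Gsdme, which is cut by caspase-3, was at 54.1 ± 11.8 and 65.6 ± 12.6 CPM (log2 0.28, SE 0.17; edgeR, adjusted p = 0.31). Without ABX, the nearest to the family in direction was Gsdma2, with a log2 difference of -0.54 (SE 0.17; edgeR, adjusted p = 0.0407), which is under 2-fold. These genes were named after their values were seen.

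Of 8 tested genes for proteases that cut gasdermins and for membrane rupture, none was called in either diet comparison by edgeR, and 5 without ABX and 4 with ABX had an unadjusted p under 0.05. Their medians were -0.41 without ABX and -0.35 with ABX. Casp1, the inflammasome protease, passed the adjusted p in both comparisons, but at changes under 2-fold, from 164 to 113 CPM without ABX (log2 -0.53, SE 0.06; edgeR, adjusted p = 2.99e-05) and from 138 to 107 CPM with ABX (log2 -0.37, SE 0.06; adjusted p = 0.00573). Casp8, which is known to cut human GSDMC, was at 100 ± 15.8 CPM on CD and 82.6 ± 2.72 on TDD (log2 -0.28; edgeR, adjusted p = 0.0837). Casp1 and Casp8 were singled out after their values were seen. Gzma and Gzmb, granzymes of cytotoxic lymphocytes, fell with ABX on CD, with log2 changes of -1.48 (SE 0.43, edgeR adjusted p = 0.0279) and -1.46 (SE 0.44, adjusted p = 0.0352), in a comparison where 1.69% of all genes were called lower. On CD they spread widely, at 29.4 ± 26.4 and 14.3 ± 13.7 CPM (SD, n = 5). Both calls were lost in 12 of 30 alternatives, among them limma, the replicate block, a fit of the 2 groups alone, and the fits without CD mouse 4 or 5 or without any 1 of the CD mice with ABX. Without CD mouse 5 the log2 changes were -0.84 and -0.75 (edgeR, adjusted p = 0.125 and 0.174).

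Of the type 2 genes, known to act upstream of or along with the family, those high enough to test did not pass the threshold between diets. Of 9 tested genes of type 2 cytokines and interleukin-4 and interleukin-13 signalling none was called between diets in either setting, with 2 and 3 unadjusted edgeR p-values under 0.05 and medians of -0.01 without ABX and -0.12 with ABX. Il4, Il5, Il9, Il13 and Il25 had at most 9 counts in any mouse and were too low to test. The result therefore does not cover these cytokines. Stat6 was at 193 CPM on CD and 186 on TDD (log2 -0.06, SE 0.07; edgeR, adjusted p = 0.655), and Il4ra, the shared receptor chain, at 70.1 and 71.4 CPM (log2 0.03, SE 0.11; adjusted p = 0.901). Il2rg, a cytokine receptor chain, fell with ABX on TDD (log2 -1.01, SE 0.28; edgeR, adjusted p = 0.0219), where 1.29% of genes were called lower, but 19 of 30 alternatives did not call it. With DESeq2 size factors its log2 change was -0.99, just under 2-fold, and without TDD mouse 4 it was -0.87 (edgeR, adjusted p = 0.0599). Of 9 tested genes of the type 2 epithelial and mast cell response none was called in any comparison by edgeR with all mice, with 1 and 2 unadjusted edgeR p-values under 0.05 and medians of -0.11 and -0.25 between diets. The nearest was Clca1, a goblet cell product chosen after its values were seen, at 1460 CPM on CD and 742 on TDD (log2 -0.98, SE 0.16; edgeR, adjusted p = 0.0006), just under 2-fold. Clca1 was called in 6 of 30 alternatives, such as limma on log2(TPM + 1) with a log2 difference of -1.05, and Sprr2a1 without CD mouse 2. With ABX on TDD DESeq2 called Mcpt1, a mast cell protease, higher (log2 1.73, adjusted p = 0.0186), and edgeR called Mcpt1 and Mcpt2 without TDD mouse 4 with ABX.

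Tuft cells, the epithelial source of interleukin-25, were followed by 15 markers, all of them tested. None was called in any comparison by edgeR with all mice, and in none of the diet comparisons did a marker reach an adjusted p under 0.05 by edgeR, while 1 of 15 without ABX and 10 of 15 with ABX had an unadjusted p under 0.05. Their median was -0.22 between diets without ABX and -0.45 with ABX, with 14 of 15 lower on TDD in the latter, where 50.8% of all genes were lower. With ABX on CD the median was 0.84, and 11 of 15 markers had an adjusted p under 0.05 at changes under 2-fold, beside 12.8% of all genes with such a p at any size. Leaving out 1 mouse called up to 5 of them, Alox5, Gfi1b, Gnat3, Rgs13 and Sh2d6, the most without CD mouse 2 with ABX. The summed tuft cell level was 114 to 137 CPM on CD, 99.6 to 122 on TDD, 140 to 255 on CD with ABX and 117 to 184 on TDD with ABX. On TDD, where the gasdermin C family was lowest, the tuft cell sum overlapped with that of CD. Mice 1 and 5 on TDD with ABX, with family sums of 72.2 and 70.7 CPM, had tuft cell sums of 142 and 184 CPM. Over the 20 mice r with the family was highest for Trpm5 and Alox5 (0.76 each) among the tuft markers with a mean of at least 1 CPM. After subtraction of the group means it was 0.67 and 0.66. Ptgs1, Ltc4s and Il17rb had r of -0.26, 0.04 and 0.09, and at most 0.15 after the subtraction. These markers were named after their values were seen, as a description of points that share libraries. The part of tuft cell number in the family's levels was not tested.

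Epithelial zones and other cell types were followed by marker lists. With ABX, no tested gene of any list was called between diets, by edgeR, DESeq2, limma or any other alternative. Without ABX, alternatives added to the calls given here Gzmb (3 of 30 alternatives), Cd8a (3), Slc10a2 (6), Reg3g (2) and up to 3 pancreatic genes. Without ABX, 0.846% of all genes were called higher on TDD, among them Reg3b, an antimicrobial lectin of the lower villus, which rose from 770 ± 173 to 2850 ± 2890 CPM (log2 1.88, SE 0.57; edgeR, adjusted p = 0.0324). Of 30 alternatives 20 called Reg3b. The call was lost by limma, with a replicate block, with the 2 groups alone, and without CD mouse 1, 3, 4 or 5 or TDD mouse 4, without which the log2 difference was 1.11 (edgeR, adjusted p = 0.155). Reg1, of the same zone, fell from 4.19 ± 1.81 to 1.61 ± 0.557 CPM (edgeR, adjusted p = 0.00212). Of 8 tested genes of that zone, 5 were lower on TDD without ABX (median -0.35) and 8 with ABX (median -0.34). Among all genes 47.3% and 50.8% were lower. An adjusted edgeR p under 0.05 at any size was reached by 5 and 1 of the 8, beside 14.4% and 1.77% of all genes. Villus tip genes, 7 tested, had medians of 0.34 without ABX and 0.77 with ABX between diets, and none was called. The pancreatic genes Ctrb1 and Cpa1 were called lower on TDD (edgeR, adjusted p = 0.0111 and 0.0325), with the level on CD almost all in CD mouse 5. Without that mouse both fell under the filter on low values.

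With ABX, villus genes moved in both diets. Fabp6, Slc10a2 and Fabp2, a fatty acid binding protein, rose on CD by 5.14, 4.07 and 1.20 on the log2 scale and on TDD by 3.92, 2.65 and 1.22 (edgeR, adjusted p from 7.59e-05 to 0.0163). That was 3 of 7 ileal enterocyte genes, where 0.607% of all genes were called higher on CD and 0.374% on TDD. Of 30 alternatives 29 called Fabp6 in each diet. The exception was limma-voom, with adjusted p = 0.101 on CD and 0.086 on TDD. On CD with ABX Fabp6 ranged from 2.65 to 144 CPM among mice. Apoa4, an apolipoprotein of the villus tip, fell with log2 changes of -1.61 on CD and -1.13 on TDD (edgeR, adjusted p = 0.0054 and 0.0317). On TDD 11 of 30 alternatives, limma, the replicate block and 7 fits that left out a TDD mouse with or without ABX, did not call it, at log2 changes of -1.13 to -1.01. Reg3b and Reg3g fell on TDD by log2 changes of -3.52 and -3.24 (edgeR, adjusted p = 0.00157 and 0.00221), and Reg1 fell on CD (log2 -1.20, adjusted p = 0.00637). T cell genes Cd3e, Cd3g and Cd8a fell on CD by log2 changes of -1.63, -1.40 and -1.84 (edgeR, adjusted p from 0.00112 to 0.0019). Car4, a carbonic anhydrase also abundant in colon, rose on CD by 1.29 (edgeR, adjusted p = 0.000913). Car1, a defining colonic gene, was at 0 counts in all CD mice and in all TDD mice with ABX, and at up to 1 count on TDD. On CD with ABX 1 mouse held almost all of it, with 100 counts or 2.4 CPM, against a group mean of 0.488 ± 1.07 CPM. Ctrb1 and Cpa1 were again called lower against CD (edgeR, adjusted p = 0.00929 and 0.0222). Among B cells, goblet cells, Paneth cells, crypt stem cells and smooth muscle no gene was called by edgeR with all mice, although summed B cell markers ranged from 2.38 to 130 CPM among mice. The B cell genes Cr2 and Ms4a1 were called by DESeq2 with ABX on CD, and edgeR called Cd79a and Fcer2a with ABX on TDD without TDD mouse 5 with ABX.

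Within the family, levels ran together from mouse to mouse. Over the 20 mice Pearson's r of log2(CPM + 1) was 0.992 between Gsdmc2 and Gsdmc3, 0.991 between Gsdmc2 and Gsdmc4 and 0.988 between Gsdmc3 and Gsdmc4. After subtraction of the 4 group means r was still 0.977 to 0.984. These points share libraries and, in part, reads that fit several copies. Gsdmc, with few counts, had r of 0.870 to 0.887 with the others.

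Outside the family, 14045 genes with a mean of at least 1 CPM were compared with the summed family level over the 20 mice, as a description. The highest r was that of Rnpep, an aminopeptidase (0.92), followed by Gm3336 and Alppl2 (0.91 each), Gpx1 (0.90) and Mrps21, Stk11, Ciao3 and Coa3 (0.89 each). Such an r mixes the difference between groups with that between mice. Alppl2, an alkaline phosphatase, was at 7.16 ± 2.20 CPM on CD, 1.15 ± 0.154 on TDD, 8.84 ± 1.42 on CD with ABX and 3.63 ± 0.938 on TDD with ABX. Its log2 difference between diets was -2.63 without ABX and -1.28 with ABX, given without a test because its likeness to the family includes these differences.

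Within groups, the order was a different one. By deviations from the group means the most alike gene was Pla2g4c, a phospholipase A2, with r = 0.90, followed by Gpx2 (0.83), Duox2 (0.82), AA467197 (0.81), Rpl22l1 (0.79), Gpx1 (0.78), Duoxa2 (0.76) and Mfsd13a (0.76). Duox2 makes hydrogen peroxide at the epithelial surface and Duoxa2 is its maturation factor, and Gpx1 and Gpx2 are glutathione peroxidases. The 8 genes were picked for the highest r among 14045, which favours high values, and a shared role was not tested.

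Pla2g4c was at 1.65, 6.54, 2.05, 3.21 and 10.5 CPM in CD mice 1 to 5 and at 0.595 to 0.766 CPM on TDD. On CD with ABX it was at 2.96, 5.25, 27.1, 42.2 and 19.9 CPM and on TDD with ABX at 9.59, 1.34, 1.84, 2.11 and 17.4 CPM. Mice 1 and 5 on TDD with ABX, which had the highest family levels of their group, also had the highest Pla2g4c. Its diet difference without ABX was -2.83 on the log2 scale (edgeR, adjusted p = 0.0269). With ABX it was -1.60 and did not pass the threshold (edgeR, adjusted p = 0.302). Duox2 was at 9.34 to 32.5 CPM on CD and 4.52 to 14.1 on TDD. With ABX it was at 15.1 to 134 CPM on CD and 8.34 to 21.4 on TDD. Its log2 diet differences were -1.21 without ABX (edgeR, adjusted p = 0.12) and -1.91 with ABX (adjusted p = 0.0577). Neither passed the threshold.

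**Figure D5:**
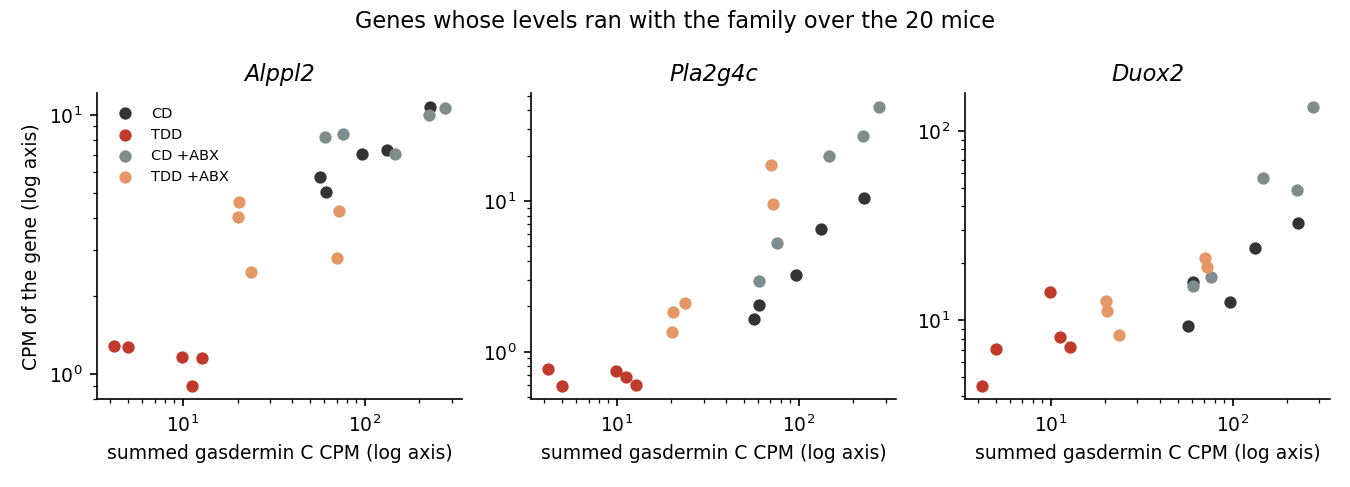
Each point is 1 of 20 mice, with the summed CPM of the 4 gasdermin C genes on the x axis and the CPM of Alppl2, Pla2g4c or Duox2 on the y axis, both logarithmic. Alppl2 separates the diets, while Pla2g4c and Duox2 follow the family from mouse to mouse within the CD groups, with 42.2 and 134 CPM in the ABX-treated mouse with the highest family level, 277 CPM.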

How the data were processed

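RNA of 20 mice was sequenced by the authors, who pseudoaligned reads with kallisto 0.44.0 to GRCm38 and deposited a gene table of estimated counts and, for each mouse, transcript files that hold estimated counts and TPM. The members and all gene lists were chosen with earlier results of these data known. Estimated counts were rounded to whole numbers, and the 16306 genes that reached 0.5 CPM in 1 mouse or more were fitted with edgeR 4.0.16 (R 4.3.3; TMM scaling, quasi-likelihood test, 4 group means over all 20 mice), with Benjamini-Hochberg adjustment over all genes. A gene was called at an adjusted p under 0.05 and a change of at least 2-fold. CPM are scaled by TMM. The deposited TPM were summed per gene. The fit was tested on simulated data. The study names iDEP but not the test within it.

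Genes were named by a rule: the 4 members and their transcripts, the pseudogenes and nearest protein-coding genes of the cluster, at most 4 called genes per list and comparison, and the 8 genes most like the summed family by each of 2 measures. A gene named outside it is said to be chosen after its values were seen. Replicate numbers did not pair the mice. The mice are separate animals of 1 experiment. No 2 libraries of the same group agreed within sampling noise. Alternatives were other scalings and filters, DESeq2 1.42.0, limma 3.58.1 (voom, or log2 of TPM plus 1 or 0.1), fits of 2 groups, a replicate block and leaving out each mouse. Depth of 36676963 to 58662617 counts per mouse leaves Gsdmc with few counts. Annotation was GENCODE M21, aligned with Biopython.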

Additional observations from a re-analysis of the deposited data

Results flagged for a closer look

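Gsdmc in CD mouse 5, at 0.905 CPM, stood apart from the other CD mice, which were at 0.367 to 0.465 CPM. Its gap to the nearest mouse was above the limit of Dixon's test for 5 samples, a limit that chance passes in about 1 of 20 groups. The same mouse held the pancreatic transcripts (133 CPM summed), and the part of these in its Gsdmc level was not tested.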

How the results depend on the processing

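Gsdmc4 stayed lower on TDD with ABX in every alternative. It was not called when only the 2 groups were fitted (-2.09, edgeR adjusted p = 0.0778) or with a replicate block (-2.21, adjusted p = 0.0867), and ranged from -2.42 to -1.76 when 1 mouse was left out. DESeq2 called Gsdmc2 (-1.69, adjusted p = 0.0364) and Gsdmc3 (-1.97, adjusted p = 0.0207), which edgeR did not. Same-numbered mice of 2 groups correlated at -0.434 to 0.307 in their deviations, over 0.1 in 6 of 30 pairs, so the numbers were not used as pairs. The block lowered calls between diets with ABX from 54 to 30 and changed no other call of a member in that comparison. DESeq2 made 98 such calls, and limma on log2(TPM + 1) made 25. Without ABX limma on log2(TPM + 1) made 137 diet calls against 300, and on CD and TDD it made 123 and 93 ABX calls against 375 and 272, while log2(TPM + 0.1) made 240 and 176.

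Pseudocounts shrank low genes: Gsdmc between diets without ABX was -0.34 with log2(TPM + 1) and -1.68 with log2(TPM + 0.1), and Gsdmc3 was -2.41 with log2(TPM + 1). Gsdmc with ABX on TDD was 0.67 by limma-voom, 0.07 with log2(TPM + 1) and 0.40 with log2(TPM + 0.1), and Gsdmc3 was 1.27 with log2(TPM + 1). When 1 mouse was left out, Gsdmc ranged from -4.17 to -3.45 between diets without ABX, from -0.43 to 0.30 with ABX on CD and from 0.92 to 2.11 with ABX on TDD. Gsdmc could not be tested where 5 mice had to reach 0.5 CPM.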
